A study of Mus musculus with 12 samples.

Results

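Rab GTPases are the small membrane-bound GTPases that mark the compartments of the secretory and endocytic routes, and their transcripts were measured in mouse CT26 cells with and without Mll3. Members were all genes of the count table whose symbol is Rab, a number and at most 1 letter, which gave 46 of its 17718 genes. They were grouped into 6 roles: early endosome, recycling, late endosome and lysosome, secretory, endoplasmic reticulum (ER) and Golgi, and cilium and other. Of 59 mouse symbols of this form, 13 have no row in the table and are not analysed here (Rab3c, Rab6b, Rab9b, Rab15, Rab19, Rab26, Rab27a, Rab32, Rab38, Rab39, Rab40b, Rab42 and Rab44). The study compared Mll3 wild-type (WT) with Mll3 knock-out CT26 cells, a mouse colorectal adenocarcinoma line kept in culture, and took 3 bulk RNA-seq libraries of each. Neither group carries a drug treatment in the labels. Mll3, also called Kmt2c, is a histone H3 lysine methyltransferase of enhancers. The sources used here do not say whether the knock-out cells are a clone or a pool, nor how the gene was disrupted. The knock-out columns are named sg1, sg2 and sg3, and the labels do not say whether the number marks a replicate or a guide. The 6 other samples of the series, which are histone-mark profiles and single-cell libraries, are not analysed here.

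A Rab protein is switched on when a guanine nucleotide exchange factor (GEF) loads it with GTP on a membrane, and switched off when a GTPase-activating protein (GAP) speeds GTP hydrolysis. In its active form it binds effectors, which are tethers, motor adaptors and coat or sorting factors that move, dock and fuse vesicles. Lipid (geranylgeranyl) groups added by a Rab prenyltransferase anchor Rab proteins in membranes, and the GDP dissociation inhibitors (GDIs) take inactive Rab proteins off again.

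Each library held 9559658 to 13406013 gene counts, so 1 count was worth 0.0746 to 0.105 CPM (gene counts scaled to a common library size). Levels are CPM scaled by edgeR's trimmed mean of M-values (TMM), and differences are log2 fold changes of knock-out over WT. A gene was called when edgeR's quasi-likelihood test gave a Benjamini-Hochberg adjusted p under 0.05 over the 13013 genes tested. The targeted gene Kmt2c read 24.9, 26.2 and 25.0 CPM in WT against 16.0, 11.2 and 14.8 CPM in knock-out libraries. Its log2 fold change was -0.87 (SE 0.129, edgeR adjusted p = 4.33e-08), so its transcript was lower but still counted in each knock-out library. Of 10 epithelial marker genes, 5 had a row and all 4 tested were called higher, and their summed level went from 54.4 to 56.7 CPM in WT to 170.5 to 181.9 CPM in knock-out libraries. The summed level of fibroblast and endothelial markers (7 of 8 with a row, 5 of 6 tested called higher) went from 1009 to 1027 CPM to 1323 to 1361 CPM. Immune markers (5 of 8 with a row, 1 of 3 tested called higher and 1 lower) summed to 18.7 to 23.1 CPM in WT and 18.8 to 23.5 CPM in knock-out libraries, and the leukocyte marker Ptprc reached at most 0.346 CPM. The part of these shifts in the Rab values was not tested. Whether the 3 libraries of a genotype are separate cultures is not stated, so each p-value measures spread between libraries that may be technical. In the knock-out group that spread may also lie between guides. In bulk RNA, fewer cells of a kind and less RNA per cell cannot be told apart.

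Of the 46 Rab genes, 39 passed the filter on low counts and 25 were called, 10 higher and 15 lower in the knock-out cells. That is 64.1% of the Rab genes tested, where 66.2% of all genes tested were called. The share called higher was 25.6% against 33.1% of all genes, and the share called lower 38.5% against 33.2%. The counts of each role group below, with 4 to 10 tested members, also stand against these shares of all genes. All 3 knock-out libraries lay outside the range of the WT libraries for 27 Rab genes (69.2%), against 68.7% of all genes, 11 of them above (34.4% of all genes) and 16 below (34.3%). The family as a whole thus changed about as often as the rest of the table. The median log2 fold change was -0.07 over the Rab genes and 0.02 over all genes. The split by direction depends on the scaling: upper-quartile scaling gave 18 higher and 12 lower, and library size alone 16 higher and 13 lower, while the median of all genes moved to 0.17 and 0.14.

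Most changes were small: 14 of the 25 called members differed by less than 1.5-fold. The 11 that reached 1.5-fold (28.2% of those tested, against 33% of all genes) were 5 higher and 6 lower. Rab7b, Rab29, Rab3d, Rab17 and Rab36 rose by more than 2-fold. Rab33a, Rab30, Rab8a, Rab6a, Rab10 and Rab28 fell, only Rab33a among them by more than 2-fold. All genes gave 18.7% called higher and 14.4% called lower at 1.5-fold. When the test was set against a 1.5-fold change (glmTreat), 7 of 39 members passed, beside 2602 of all 13013 genes. The 7 were the 5 that rose, Rab33a and Rab6a. Rab17 passed the filter on low counts through its knock-out libraries alone and Rab33a through its WT libraries alone, so a difference was built into their being tested. The same holds for Rab36, which needed its knock-out libraries to pass because its WT libraries did not all reach the floor of 0.986 CPM.

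**Figure D1:**
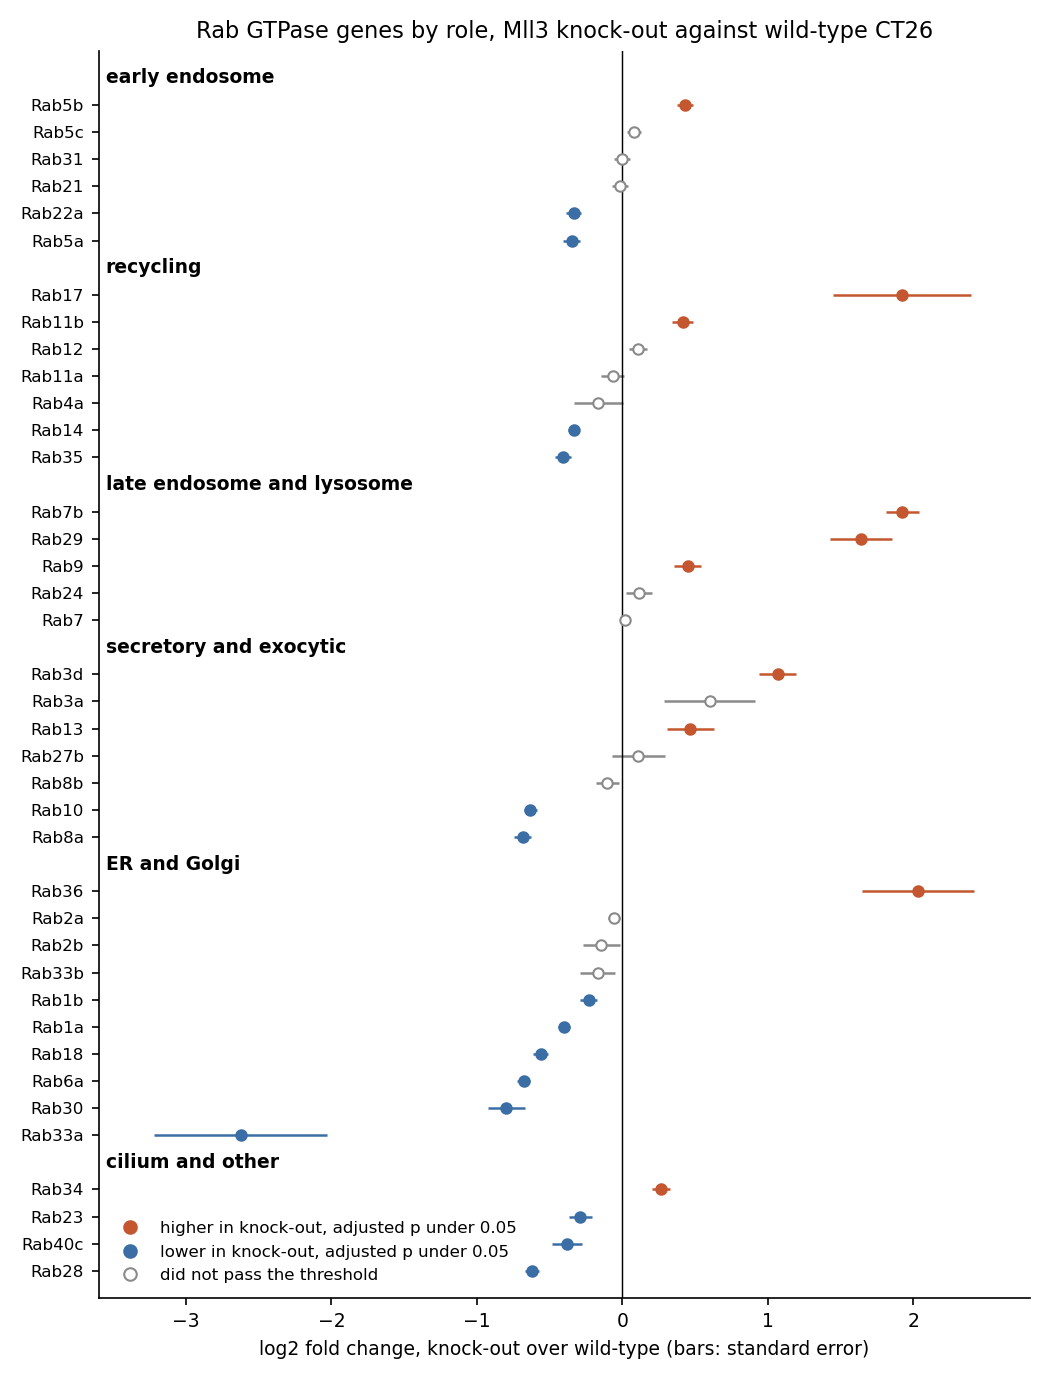
Log2 fold change of knock-out over WT for each of the 39 Rab genes tested, grouped by role, with bars of 1 SE. Rab7b, Rab29, Rab3d, Rab17 and Rab36 stand out to the right and Rab33a to the left, while most other members lie within 1 log2 unit of 0.

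The early endosome is governed by the Rab5 proteins, which steer fusion of incoming vesicles, with Rab21 in integrin uptake and Rab22a and Rab31 in sorting. Of 6 tested members 1 was called higher and 2 lower, and their median log2 fold change was -0.01. Rab5a stood at 103, 116 and 104 CPM in WT and at 88.1, 83.6 and 82.6 CPM in knock-out libraries, a log2 fold change of -0.35 (SE 0.0590, edgeR adjusted p = 8.00e-07). Its paralog Rab5b stood at 96.3, 88.5 and 92.4 CPM in WT and 126, 123 and 125 CPM in knock-out libraries, a log2 fold change of 0.43 (SE 0.0547, edgeR adjusted p = 8.25e-10). Both genes had separated groups, in opposite directions. Rab5b lies on chromosome 10, whose genes had a median log2 fold change of 0.36, and Rab5b was at 0.07 (adjusted p = 0.252) once chromosome medians were removed. Rab5c, the other member of the trio, had a mean of 155 ± 4.22 CPM (SD, n = 3 libraries, as for all means here) in WT and 164 ± 8.50 CPM in knock-out libraries, and was not called (log2 fold change 0.08, adjusted p = 0.128). It was called under upper-quartile scaling (0.24), library size alone (0.20) and the stricter filter on low counts (0.12).

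Rab22a stood at 136, 132 and 139 CPM in WT and 106, 110 and 107 CPM in knock-out libraries, a log2 fold change of -0.33 (SE 0.0519, edgeR adjusted p = 1.24e-07). Its relative Rab31 read 120, 113 and 115 CPM against 119, 113 and 116 CPM, a log2 fold change of -0.003 (adjusted p = 0.962). The groups were apart for Rab22a and overlapped for Rab31. Rab21 was not called either (log2 fold change -0.01, adjusted p = 0.830). Both uncalled values turned positive and were called under upper-quartile scaling, at 0.14 for Rab21 and 0.15 for Rab31, in which the median of all genes was 0.17.

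Recycling Rabs return receptors to the cell surface: Rab4 and Rab35 by fast routes, Rab11 through the recycling endosome, Rab14 between the Golgi and endosomes. Of 7 tested, 2 were called higher and 2 lower. Rab35 stood at 117, 121 and 123 CPM in WT and 88.8, 89.5 and 93.1 CPM in knock-out libraries, a log2 fold change of -0.41 (SE 0.0551, edgeR adjusted p = 4.39e-09). Rab14 stood at 376, 379 and 362 CPM in WT and 294, 290 and 302 CPM in knock-out libraries, a log2 fold change of -0.33 (SE 0.0389, edgeR adjusted p = 5.88e-11). In both genes each knock-out library lay below each WT library. Rab11b rose from 62.0, 57.3 and 75.6 CPM to 83.1, 87.3 and 88.6 CPM (log2 fold change 0.42, SE 0.0713, edgeR adjusted p = 1.44e-06), while Rab11a read 51.9, 52.7 and 47.7 CPM against 44.9, 52.5 and 48.0 CPM and was not called (log2 fold change -0.07, adjusted p = 0.472). The WT libraries of Rab11b differed among themselves more than its knock-out libraries did, and the groups stayed apart.

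Rab17 (ENSMUSG00000026304, chromosome 1, 90958133 to 90969673, GRCm38.p6), a Rab of polarized epithelial cells, was counted 7, 7 and 4 times in WT and 29, 24 and 17 times in knock-out libraries. These counts are 0.550, 0.714 and 0.431 CPM against 2.84, 2.08 and 1.63 CPM, a log2 fold change of 1.92 (SE 0.473, edgeR adjusted p = 0.000347). The groups did not overlap, though every value was near the lower end of what was tested. Rab4a (12.0 against 10.6 CPM, adjusted p = 0.398) and Rab12 (75.8 against 81.8 CPM, adjusted p = 0.122) were not called. For Rab12 all knock-out libraries were above all WT libraries, and it was called under upper-quartile scaling (0.27), library size alone (0.23) and the stricter filter (0.14).

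The late endosomal and lysosomal group had 3 of 5 members called higher and none called lower, with a median log2 fold change of 0.45. Of all genes tested, 33.1% were called higher and 33.2% lower, and 5 members are few to set beside them. Rab7b (ENSMUSG00000052688, chromosome 1, 131688681 to 131715443), which in human cells acts in transport from late endosomes to the trans-Golgi network, stood at 13.7, 9.89 and 12.1 CPM in WT and at 47.6, 43.8 and 45.2 CPM in knock-out libraries. It was 3.80-fold higher (log2 fold change 1.92, SE 0.112, edgeR adjusted p = 2.83e-22), and its knock-out libraries lay far above the highest WT library. Rab7, the main Rab of late endosomes and lysosomes, read 508, 497 and 482 CPM against 476, 514 and 516 CPM, and its groups overlapped (log2 fold change 0.02, adjusted p = 0.688).

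Rab29 (ENSMUSG00000026433, chromosome 1, 131867210 to 131872887), known for recruiting the kinase Lrrk2 to Golgi and lysosomal membranes, stood at 2.44, 5.20 and 3.67 CPM in WT and 11.6, 12.4 and 10.6 CPM in knock-out libraries. It was 3.12-fold higher (log2 fold change 1.64, SE 0.215, edgeR adjusted p = 1.69e-09), with the groups well apart. Rab9, which acts in the return of mannose 6-phosphate receptors from late endosomes, rose from 30.3, 31.4 and 26.4 CPM to 40.5, 38.1 and 42.2 CPM (log2 fold change 0.45, SE 0.0932, edgeR adjusted p = 2.97e-05). Rab24, linked to autophagy, had 33.8 CPM in WT and 36.6 CPM in knock-out libraries and was not called (adjusted p = 0.271). Both scalings named above called these uncalled members, Rab7 at 0.17 and 0.14 and Rab24 at 0.27 and 0.24.

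The secretory group was split, with 2 of 7 tested members called higher and 2 lower, beside 1 uncalled member that passed when a library was left out. Rab8a (ENSMUSG00000003037, chromosome 8, 72161200 to 72181366), which directs exocytic carriers to the plasma membrane and the cilium, stood at 115, 119 and 106 CPM in WT and at 70.6, 67.6 and 73.1 CPM in knock-out libraries. It was 1.61-fold lower (log2 fold change -0.69, SE 0.0602, edgeR adjusted p = 4.79e-15). Rab10 (ENSMUSG00000020671, chromosome 12, 3247428 to 3309969), which delivers glucose transporter vesicles in fat cells, stood at 250, 248 and 265 CPM in WT and at 162, 156 and 174 CPM in knock-out libraries. The groups were widely separated for both genes. Rab10 was 1.55-fold lower (log2 fold change -0.63, SE 0.0457, edgeR adjusted p = 2.41e-18). An antisense gene, Rab10os, overlaps Rab10 and went from 71.3 to 44.4 CPM (log2 fold change -0.68). The libraries are strand-specific per the labels, but no source used here says whether counting used the strand, so reads of this pair may be shared.

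Rab3d (ENSMUSG00000019066, chromosome 9, 21907491 to 21918199), a Rab of secretory granules, stood at 13.0, 11.1 and 12.0 CPM in WT and at 22.8, 26.4 and 26.8 CPM in knock-out libraries. It was 2.10-fold higher (log2 fold change 1.07, SE 0.129, edgeR adjusted p = 1.79e-10), and its lowest knock-out library was well above its highest WT library. Rab13, a Rab of epithelial junction traffic, stood at 8.88, 10.5 and 9.06 CPM in WT and 15.0, 11.8 and 12.5 CPM in knock-out libraries (log2 fold change 0.47, SE 0.162, edgeR adjusted p = 0.00967). Its call rested in part on the highest knock-out library, sg1, without which the log2 fold change was 0.35 (adjusted p = 0.0908). Rab8b read 55.1, 52.8 and 48.6 CPM against 46.3, 52.5 and 47.0 CPM, and its groups overlapped (log2 fold change -0.10, adjusted p = 0.243). Rab27b, an exocytosis Rab, had 9.09 against 9.79 CPM (adjusted p = 0.606). Rab3a, a Rab of synaptic vesicles, read 3.30, 2.14 and 2.26 CPM against 5.58, 3.72 and 2.59 CPM (log2 fold change 0.60, SE 0.311, adjusted p = 0.0845). Its groups overlapped, and it was called without WT library 1 (log2 fold change 0.84) or without knock-out library sg3 (0.81), under upper-quartile scaling (0.76) and under library size alone (0.72).

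In the ER and Golgi group 6 of 10 tested members were called lower and 1 higher, with a median log2 fold change of -0.32. Beside them, 33.2% of all genes tested were called lower and 33.1% higher. Rab1a, which with Rab1b controls traffic from the ER to the Golgi, stood at 291, 291 and 295 CPM in WT and 216, 226 and 222 CPM in knock-out libraries (log2 fold change -0.40, SE 0.0410, edgeR adjusted p = 1.10e-12). Rab6a (ENSMUSG00000030704, chromosome 7, 100607575 to 100641268), the Rab of retrograde Golgi transport and of exocytic carriers, stood at 249, 245 and 228 CPM in WT and 146, 155 and 151 CPM in knock-out libraries. Both had tight groups that did not overlap, and Rab6a was 1.60-fold lower (log2 fold change -0.68, SE 0.0456, edgeR adjusted p = 1.37e-19). Rab1b was called lower (106 ± 5.23 to 90.6 ± 3.95 CPM, log2 fold change -0.23, adjusted p = 0.000432). It was not called under upper-quartile scaling (-0.07), under library size alone (-0.11) or with chromosome medians removed (-0.07).

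Rab18, a Rab of the ER and of lipid droplets, stood at 174, 180 and 161 CPM in WT and 120, 110 and 120 CPM in knock-out libraries (log2 fold change -0.56, SE 0.0515, edgeR adjusted p = 2.60e-14). Rab30 (ENSMUSG00000030643, chromosome 7, 92741637 to 92844535), a Golgi Rab, stood at 30.8, 29.2 and 23.7 CPM in WT and 19.4, 15.0 and 14.0 CPM in knock-out libraries. Rab30 was 1.74-fold lower (log2 fold change -0.80, SE 0.125, edgeR adjusted p = 1.47e-07). In both genes the lowest WT library was above the highest knock-out library. Rab33a (ENSMUSG00000031104, chromosome X, 48513663 to 48530240), a Rab of vesicle export in neurons, was counted 23, 15 and 13 times in WT and 4, 3 and 1 times in knock-out libraries, or 1.81, 1.53 and 1.40 against 0.392, 0.259 and 0.0961 CPM. Its log2 fold change was -2.62 (SE 0.594, edgeR adjusted p = 0.000115), from knock-out libraries at the edge of detection. Rab36 (ENSMUSG00000020175, chromosome 10, 75036895 to 75054748), a Golgi Rab, was counted 11, 12 and 7 times in WT and 41, 57 and 28 times in knock-out libraries, or 0.864, 1.22 and 0.755 against 4.01, 4.93 and 2.69 CPM. It was the member of this group called higher, with groups that did not overlap (log2 fold change 2.03, SE 0.385, edgeR adjusted p = 7.10e-06). Rab2a (219 against 211 CPM, adjusted p = 0.240), Rab2b (20.2 against 18.3 CPM, adjusted p = 0.318) and Rab33b (24.1 against 21.4 CPM, adjusted p = 0.205) were not called. The log2 fold change of Rab2a was -0.06 and turned to 0.10, called, under upper-quartile scaling.

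All 4 members of the cilium and other group were called, 3 lower and 1 higher. With 66.2% of all genes tested called, 4 members are too few to set this group apart. Rab28 (ENSMUSG00000029128, chromosome 5, 41624973 to 41708193), a Rab of cilia, stood at 245, 252 and 232 CPM in WT and 167, 161 and 147 CPM in knock-out libraries, which lay far below. It was 1.54-fold lower (log2 fold change -0.62, SE 0.0469, edgeR adjusted p = 1.48e-17). Rab23, a negative regulator of Hedgehog signalling, went from 52.7 ± 0.999 to 43.0 ± 4.00 CPM (log2 fold change -0.29, adjusted p = 0.00143) and lost its call under upper-quartile scaling (-0.13), library size alone (-0.17) and removal of chromosome medians (-0.10). Rab40c, whose SOCS box joins it to a ubiquitin ligase, went from 33.2 ± 3.57 to 25.3 ± 1.81 CPM (log2 fold change -0.38, adjusted p = 0.000968) and was not called under upper-quartile scaling (-0.23, adjusted p = 0.0512). Rab34, needed for cilium formation, rose from 69.3 ± 3.02 to 83.5 ± 1.69 CPM (log2 fold change 0.27, adjusted p = 0.000234).

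**Figure D2:**
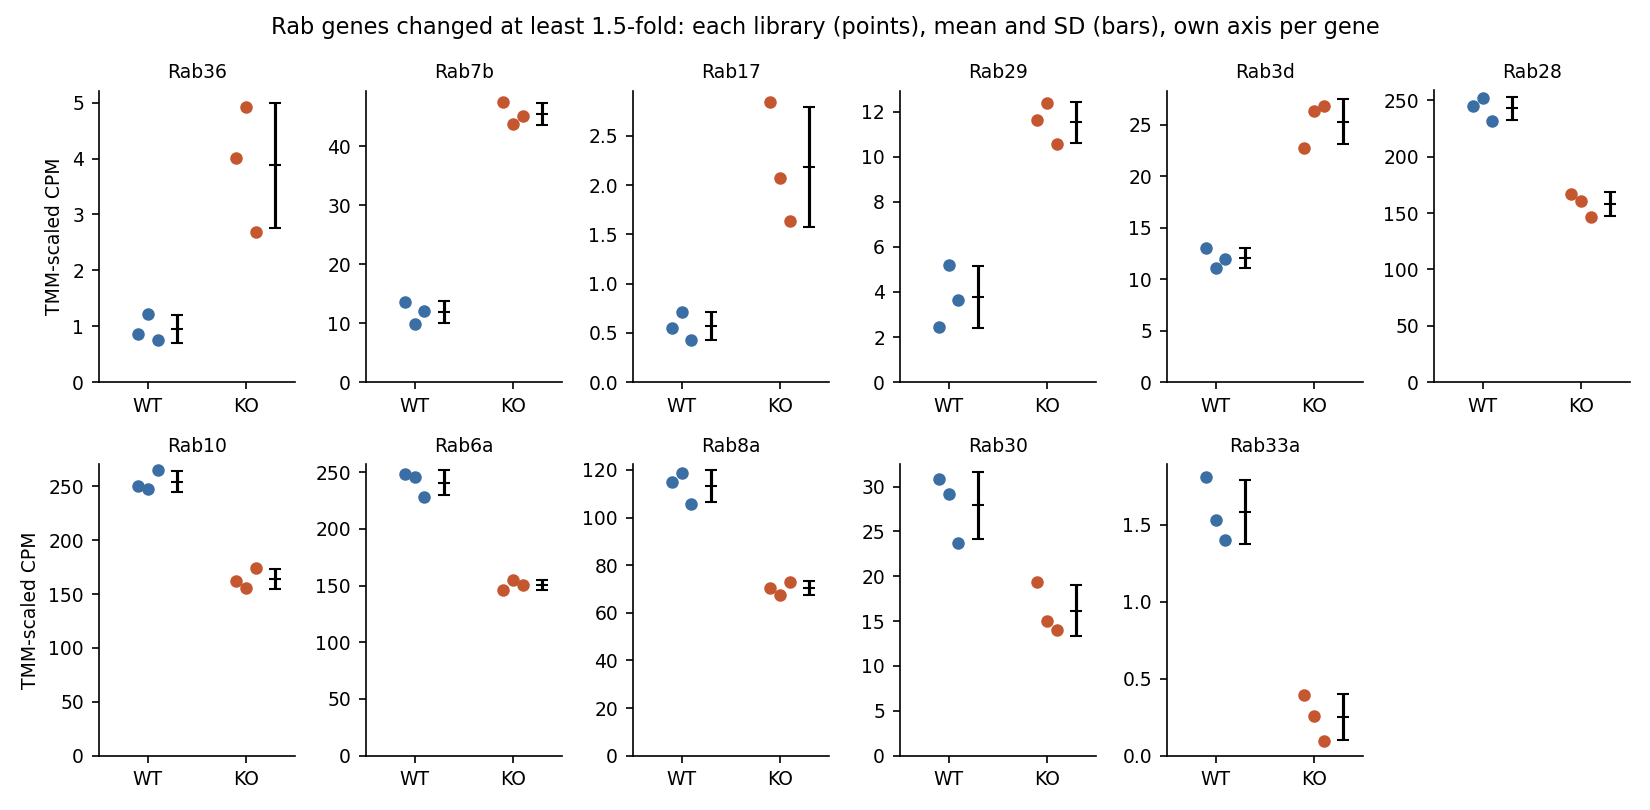
Level in each library, in TMM-scaled CPM on axes that start at 0, of the 11 Rab genes called at 1.5-fold or more. In each panel the 3 knock-out libraries lie wholly above or wholly below the 3 WT libraries, as in Rab7b at 9.89 to 13.7 against 43.8 to 47.6 CPM. The genes were picked by their difference in these same libraries, so the separation is no added support.

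The other 7 Rab genes had too few counts to be tested. Rab20, of phagosomes, was counted 4, 4 and 6 times in WT and 13, 5 and 8 times in knock-out libraries. Rab4b was counted 1, 2 and 1 times against 4, 12 and 3 times, and Rab37, a secretory Rab, 4, 1 and 4 times against 4, 22 and 10 times. Knock-out library sg2 held the highest of the counts of both. Rab25, an epithelial relative of Rab11, was counted 0, 0 and 1 times against 1, 2 and 0 times. Rab3b (4, 11 and 7 against 16, 7 and 7), Rab39b (4, 0 and 1 against 6, 8 and 0) and Rab43 (13, 3 and 6 against 7, 10 and 9) overlapped between the groups.

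Paralogs of a Rab can share function, though Rab7b and Rab7 have the separate roles given above. The share of each paralog in the counts of its set is free of library scaling. Shares follow transcript length as well as abundance, so only their shift between genotypes is described. Of 10 sets, 8 had at least 1 member whose shares did not overlap between the groups. Separation was common: 68.7% of all genes tested had CPM that did not overlap, and shares of other gene sets were not computed. The count is thus no sign of a trait of Rab paralogs. It includes the Rab4 and Rab33 sets, where the shift rests on the low counts of Rab4b and Rab33a. Within Rab5, Rab5a held 29.4, 32.5 and 29.3% of the counts in WT and 23.9, 22.1 and 22.1% in knock-out libraries, while Rab5b held 27.4, 24.7 and 25.9% in WT and 34.2, 32.5 and 33.4% in knock-out libraries. The shares of Rab5a and Rab5b thus shifted in opposite directions without overlap, while Rab5c held 43.6 ± 1.04% and 43.9 ± 1.77% (exact permutation test, two-sided, p = 0.9). The share of Rab8b in Rab8 rose from 32.4, 30.8 and 31.5% to 39.6, 43.7 and 39.1%, as Rab8a fell. The share of Rab11b in Rab11 was 54.4, 52.1 and 61.3% in WT and 64.9, 62.5 and 64.8% in knock-out libraries. For Rab8b and Rab11b the highest WT share stayed below the lowest knock-out share.

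Rab7b held 2.62, 1.95 and 2.44% of the Rab7 counts in WT and 9.08, 7.87 and 8.05% in knock-out libraries. Rab7 kept over 90% of the set's counts in every library. Rab31 held 46.8, 46.1 and 45.3% of its set with Rab22a in WT and 52.9, 50.8 and 51.9% in knock-out libraries, with no overlap between the groups. Rab1b held 26.7 ± 0.813% of the Rab1 counts in WT and 29.1 ± 1.29% in knock-out libraries, and Rab33a held 6.19 ± 1.03% and 1.20 ± 0.743% of the Rab33 counts. Rab4b held 1.05 ± 0.376% and 5.31 ± 4.14% of the Rab4 counts, with sg2 at 10.1%. The shares of the Rab2 and Rab3 sets overlapped between the groups. Each non-overlapping share gave an exact permutation p of 0.1 (two-sided), which is the smallest that 3 against 3 libraries allow, and short reads of near-identical paralogs may have been divided or dropped by the authors' counting.

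**Figure D3:**
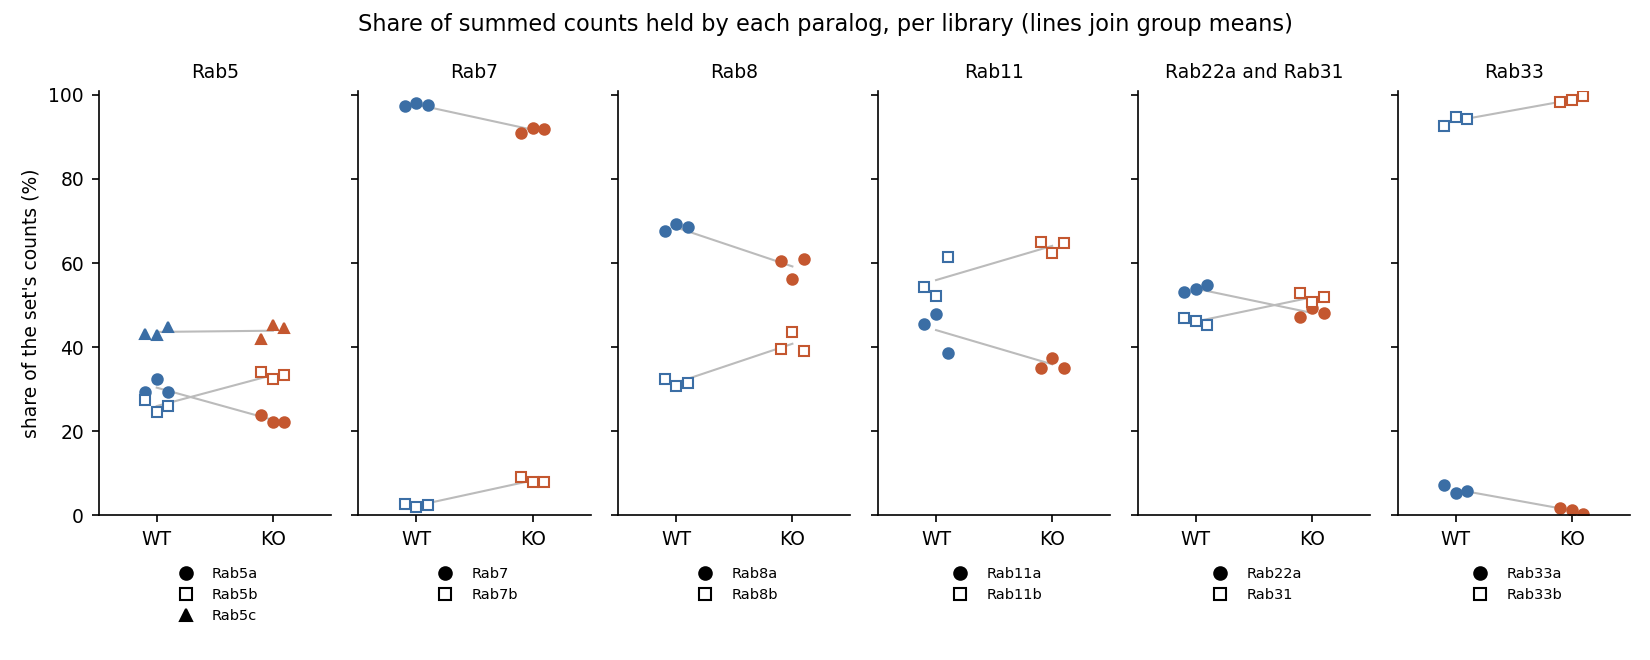
Share of the summed counts of a paralog set held by each member, in percent, for each library of both genotypes, with lines that join group means. The share of Rab5a moves down and that of Rab5b up, as do those of Rab22a and Rab31, and Rab7b moves from about 2% to 8% of the Rab7 counts.

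Rab genes lay on 18 chromosomes, and each was set beside the nearest tested genes on both sides, 10 on a side where the chromosome allowed, with other Rab genes left out. Of the 39 tested members, Rab7b, Rab29 and Rab3d had a higher log2 fold change than all 20 of their neighbours. Rab33a had a lower one than all 20, but it passed the filter on low counts through its WT libraries alone. Rank alone puts some members at an end of their neighbours, and the share of all genes that lie there was not computed. Rab7b and Rab29 are close to each other, 151 kb apart. The tested gene between them was Slc41a1, a magnesium transporter gene, at a log2 fold change of 0.30. The next tested genes outward were Fam72a at -0.24 and Srgap2 at -0.34 on one side, and Nucks1 at -0.01 and Elk4 at -0.52 on the other. The neighbours of both genes reached at most 1.14 and had medians of -0.13 (Rab7b) and -0.21 (Rab29). The 2 Rab genes thus stood above a stretch whose other tested genes moved in both directions. The highest of the 20 neighbours of Rab3d had 0.91.

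For other members the surroundings leaned the same way. The neighbours of Rab18 had a median log2 fold change of -0.64 beside its own -0.56, and chromosome 18 one of -0.32. Rab8a lies on chromosome 8, whose median was -0.36. Its 20 neighbours had a weaker median of -0.19, and 3 of them were lower than its -0.69. The neighbours of Rab36 had a median of 0.54, and 1 of 20 was above its 2.03. Rab6a went against its surroundings, with neighbours at a median of 0.40 and 1 of 20 below its -0.68. With chromosome medians removed, 28 Rab genes were called, 12 higher and 16 lower. Rab5b and the others named above lost their calls, and Rab21 (-0.37), Rab2a (-0.10), Rab2b (-0.49), Rab3a (0.95), Rab24 (0.23) and Rab27b (0.43) gained one.

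**Figure D4:**
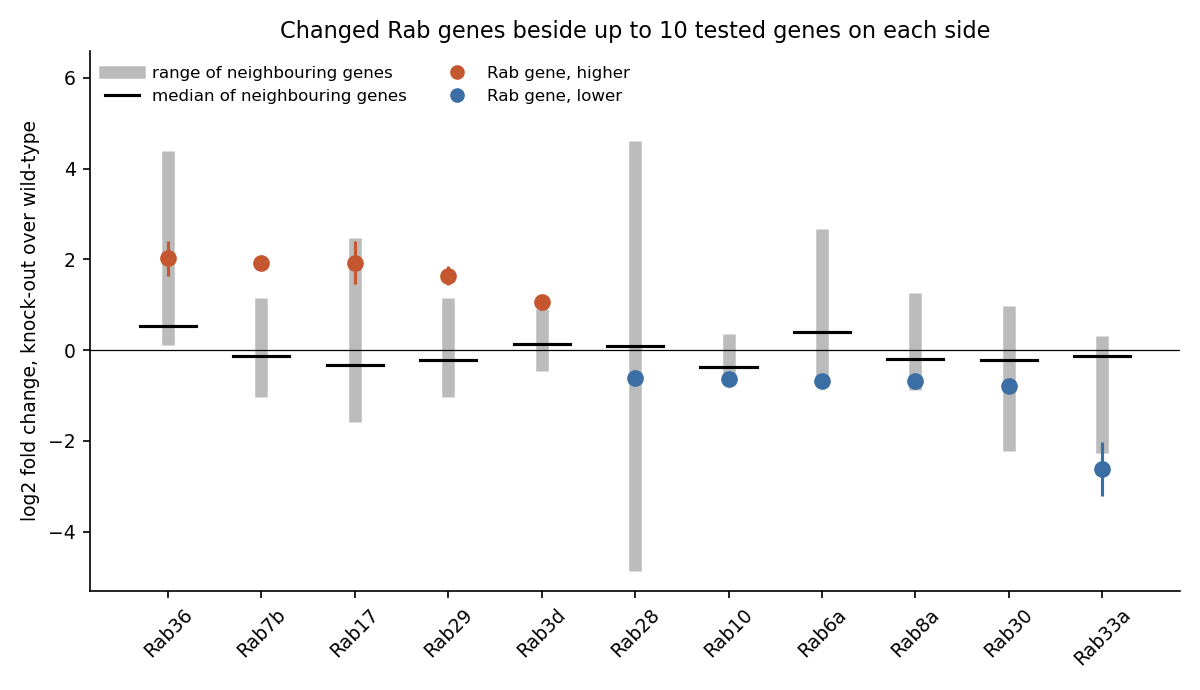
Log2 fold change of each Rab gene called at 1.5-fold or more beside that of its nearest tested neighbours on the chromosome. Rab7b, Rab29 and Rab3d lie above all their neighbours and Rab33a below all of its own, while Rab8a, Rab30, Rab10 and Rab28 lie within the range of theirs.

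The 250 bases before a transcript start were read for the members with the 3 largest falls and the 3 largest rises that have a single promoter entry in RefSeq (GRCm38.p6) to show the sequence that these opposite changes sit beside. They run 5′ to 3′ on the gene's strand, and capitals mark matches to GGGCGG (GC box), CACGTG (E-box), TGANTCA (AP-1 motif) or CCAAT on either strand. The starts of Rab33a and Rab17 lie inside the gene spans given above, well past the outermost annotated start, and those of the other members lie close to it. The 3 members that fell come first.
Rab33a, chrX:48519035-48519284, plus strand: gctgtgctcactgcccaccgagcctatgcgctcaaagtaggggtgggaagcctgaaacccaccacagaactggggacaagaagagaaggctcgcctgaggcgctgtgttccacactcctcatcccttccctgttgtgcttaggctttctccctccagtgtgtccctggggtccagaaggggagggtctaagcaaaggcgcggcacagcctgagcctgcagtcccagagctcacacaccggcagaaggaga
Rab8a, chr8:72160950-72161199, plus strand: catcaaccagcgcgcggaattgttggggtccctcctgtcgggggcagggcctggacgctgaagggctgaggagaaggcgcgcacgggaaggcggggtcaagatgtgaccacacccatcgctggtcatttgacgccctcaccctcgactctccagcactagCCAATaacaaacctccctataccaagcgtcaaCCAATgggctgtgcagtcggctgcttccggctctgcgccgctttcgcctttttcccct
Rab6a, chr7:100607336-100607585, plus strand: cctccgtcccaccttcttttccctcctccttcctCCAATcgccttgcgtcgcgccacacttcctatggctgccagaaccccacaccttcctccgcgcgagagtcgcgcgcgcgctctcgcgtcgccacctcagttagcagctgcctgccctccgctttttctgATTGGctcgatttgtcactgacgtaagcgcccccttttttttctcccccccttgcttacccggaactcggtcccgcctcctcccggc
Rab17, chr1:90967668-90967917, minus strand: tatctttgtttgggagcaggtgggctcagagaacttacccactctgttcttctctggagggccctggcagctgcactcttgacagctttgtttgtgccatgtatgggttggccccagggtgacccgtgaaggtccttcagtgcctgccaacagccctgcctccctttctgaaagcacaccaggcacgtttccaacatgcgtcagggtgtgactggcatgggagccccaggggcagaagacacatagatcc
Rab29, chr1:131867027-131867276, plus strand: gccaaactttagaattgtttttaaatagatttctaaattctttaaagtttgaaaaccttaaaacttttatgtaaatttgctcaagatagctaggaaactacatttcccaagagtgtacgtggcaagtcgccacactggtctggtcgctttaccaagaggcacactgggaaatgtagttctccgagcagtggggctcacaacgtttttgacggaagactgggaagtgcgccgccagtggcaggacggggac
Rab3d, chr9:21918184-21918433, minus strand: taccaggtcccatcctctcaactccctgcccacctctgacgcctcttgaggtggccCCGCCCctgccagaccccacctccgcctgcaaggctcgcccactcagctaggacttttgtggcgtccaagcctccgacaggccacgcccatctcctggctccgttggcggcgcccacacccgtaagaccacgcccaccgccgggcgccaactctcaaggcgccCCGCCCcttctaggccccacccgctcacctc
Rab8a and Rab6a, both broadly used Rabs that fell, each hold 2 CCAAT matches, and Rab3d, which rose, holds 2 GC boxes. The windows of Rab33a, Rab17 and Rab29 hold none of the 4 motifs. The ratio of observed to expected CpG was 1.18 for Rab6a, 0.764 for Rab8a, 0.753 for Rab29 and 0.708 for Rab3d, but 0.307 for Rab33a and 0.149 for Rab17. Over 46 promoter entries of 38 Rab genes, the GC box was found in 67.4%, against 42.6% of 21255 promoters of protein-coding genes. The sets are unlike: the Rab genes all have a row in the count table, while the 21255 were not limited to such genes. Genes with several entries count more than once, and what lies behind the differences was not tested. CCAAT was found in 41.3% against 35.4%, the E-box in 8.7% against 6.63%, and the AP-1 motif in 2.17% against 6.14%. The Rab promoters had a median CpG ratio of 0.76 and a GC content of 61.2%, against 0.53 and 55.6%. A match describes letters in this window and no binding.

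Regulators and effectors of Rab proteins came from 8 lists of 223 genes, of which 206 had a row and 193 were tested. Of these, 61 were called higher and 78 lower, together 139 of 193, with a median log2 fold change of -0.07. The shares were 31.6% higher and 40.4% lower, beside 33.1% and 33.2% of all genes, against which the counts of each list below also stand. The direction depends on the scaling: upper-quartile scaling gave 78 higher and 61 lower, and library size alone 74 higher and 63 lower. The sharpest fall in the GDI and prenylation list was that of Rabggtb, the catalytic beta subunit of the Rab prenyltransferase, which stood at 319, 313 and 304 CPM in WT and 73.8, 74.1 and 75.4 CPM in knock-out libraries. It was 4.19-fold lower (log2 fold change -2.07, SE 0.0474, edgeR adjusted p = 3.20e-41), with both groups tight. The 20 neighbours of Rabggtb on chromosome 3 had a median log2 fold change of -0.91, and 2 of them were lower than it. The alpha subunit gene, Rabggta, went from 26.1 ± 1.76 to 31.8 ± 1.76 CPM (log2 fold change 0.29, adjusted p = 0.0111). That call was lost without WT library 2 or knock-out library sg3, and its value was -0.06 with chromosome medians removed. Over the list, 2 of 16 genes were called higher and 6 lower. Rabac1, a Golgi receptor for prenylated Rabs, rose (0.32), and Arl6ip5 (-0.62) and Yipf5 (-0.54), membrane proteins of the same kind, fell. Other genes of the cycle, named after their values were seen, were Gdi2 at -0.07 (adjusted p = 0.0962) and the escort proteins Chm at -0.17 (adjusted p = 0.0580) and Chml at 0.17 (adjusted p = 0.190).

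Of 53 GEF genes tested, 15 were called higher and 21 lower, with a median log2 fold change of -0.16. The genes with the smallest p in each direction include exchange factors of Rabs described above. Ric1, part of the GEF of Rab6a in human cells, went down from 88.7 ± 1.92 CPM in WT to 28.9 ± 1.72 CPM (log2 fold change -1.61, SE 0.0753, edgeR adjusted p = 1.65e-26). Its partner Rgp1, named after its value was seen, had a log2 fold change of 0.30 (adjusted p = 0.00485), and its call was lost without WT library 3. Dennd4a, a GEF of Rab10, went down from 138 ± 12.8 CPM in WT to 53.9 ± 3.79 CPM (log2 fold change -1.36, SE 0.0643, edgeR adjusted p = 2.79e-26), below all 20 of its neighbours. Dennd2d, a GEF of Rab9 in human cells, fell from 60.9 ± 3.37 to 15.3 ± 1.27 CPM (log2 fold change -2.00), while Rab9 itself was called higher.

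Among the GEFs that rose, Rab3ip (Rabin8), the GEF of Rab8 proteins, went from 32.9 ± 1.82 to 62.6 ± 1.54 CPM (log2 fold change 0.93, SE 0.0801, edgeR adjusted p = 2.67e-15), opposite to Rab8a. St5, a GEF of Rab13 in human cells, rose from 14.1 ± 2.79 to 40.7 ± 2.07 CPM (1.51), and Rin2, a GEF of Rab5, from 10.1 ± 2.68 to 29.6 ± 2.90 CPM (1.54). Of 33 GAP genes, 14 were called higher and 13 lower. Tbc1d1 fell from 107 ± 4.00 to 64.9 ± 3.05 CPM (log2 fold change -0.72) and its relative Tbc1d4 rose from 8.17 ± 0.940 to 17.6 ± 1.36 CPM (1.09), and both act on Rab10. Tbc1d15, a GAP of Rab7, rose (0.58), as did Tbc1d14, a Rab11 binder (0.73), while Grtp1 (-0.52) and Tbck (-0.94), both with the TBC domain of Rab GAPs, fell. The 20 neighbours of Tbc1d15 had a median of 0.38 and those of Grtp1 -0.49, beside 0.08 for Tbc1d14 and -0.18 for Tbck.

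Effectors changed in both directions in every compartment. Of 23 early endosome effectors, 7 were called higher and 11 lower. Eea1, the Rab5-bound tether of early endosomes, went down from 368 ± 22.5 CPM in WT to 192 ± 4.36 CPM (log2 fold change -0.93, SE 0.0430, edgeR adjusted p = 9.06e-27), and Rbsn, another Rab5 effector, fell from 108 ± 5.38 to 59.3 ± 4.87 CPM (-0.87). Vps35, the core of retromer, fell from 472 ± 17.1 to 274 ± 0.0456 CPM (-0.79), in a stretch of chromosome 8 whose 20 nearest genes had a median of -0.52. The sorting nexins Snx3 (0.59) and Snx1 (0.33) and the lipid kinase Pik3c3 (0.80), which makes the lipid that Eea1 binds, rose. Of 16 recycling effectors, 7 were called higher and 6 lower. Ehd2, of the membrane-shaping EHD family, rose from 80.8 ± 3.93 to 171 ± 8.11 CPM (1.09), with Micall2 (1.25) and Rufy1 (1.03), whereas Micall1 (-0.91), Vps50 (-0.57) and Zfyve27 (-0.70) fell.

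Of 16 late endosome effectors, 6 were called higher and 5 lower. The golgin Gcc2, a tether for Rab9 carriers, rose from 24.3 ± 1.07 to 48.9 ± 0.667 CPM (log2 fold change 1.00, edgeR adjusted p = 1.08e-14), as did Plin3 (0.50) and Fyco1 (0.91), the latter a kinesin adaptor bound to Rab7. Plekhm2 (-0.95), Uvrag (-0.66) and Rubcn (-0.58), which act in lysosome movement and autophagy, fell. Of 13 secretory effectors, 4 were called higher and 6 lower, and the exocyst, a tether for Rab8 and Rab10 carriers, was divided. Of its 9 genes tested 3 were called higher, 4 lower and 2 not called. Exoc4 (0.54) and Exoc7 (0.45) rose and Exoc5 (-0.56), Exoc6b (-0.40) and Exoc3 (-0.47) fell, and of those named after their values were seen, Exoc2 (0.19, adjusted p = 0.0388) was called higher, Exoc8 (-0.52) lower, and Exoc1 (-0.12) and Exoc6 (0.19) were not called. The call of Exoc2 was lost with DESeq2 (adjusted p = 0.0807) and without WT library 2 or 3 or knock-out library sg1 or sg3, and that of Exoc8 with chromosome medians removed (-0.17). Exoc6 was called under both scalings (0.35 and 0.31), under the stricter filter (0.22), without sg3 (0.25) and with chromosome medians removed (0.35). Unc13d, a priming factor bound by Rab27, rose at a low level (0.897 ± 0.209 to 2.31 ± 0.665 CPM, log2 fold change 1.37, adjusted p = 0.00442), and lost its call without sg1 (1.12, adjusted p = 0.0516). Unc13d also needed its knock-out libraries to pass the filter on low counts. Of 23 ER and Golgi effectors, 6 were called higher and 10 lower. Uso1, the Rab1-bound tether p115, fell from 249.8 ± 1.86 to 170.1 ± 11.1 CPM (-0.56), as did Gorasp2 (-0.51) and Golga4 (-0.67). The 20 neighbours of Uso1 had a median of -0.40, those of Gorasp2 -0.06 and those of Golga4 0.22. The Rab6-bound motor Kif20a (0.64) rose. The dynein adaptors were divided: Bicd1 (8.58 to 13.7 CPM, 0.68) and Bicdl1 (2.25 to 5.01 CPM, 1.14) rose, and Bicd2, named after its value was seen, fell from 86.9 to 62.2 CPM (-0.48, adjusted p = 3.01e-09).

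**Figure D5:**
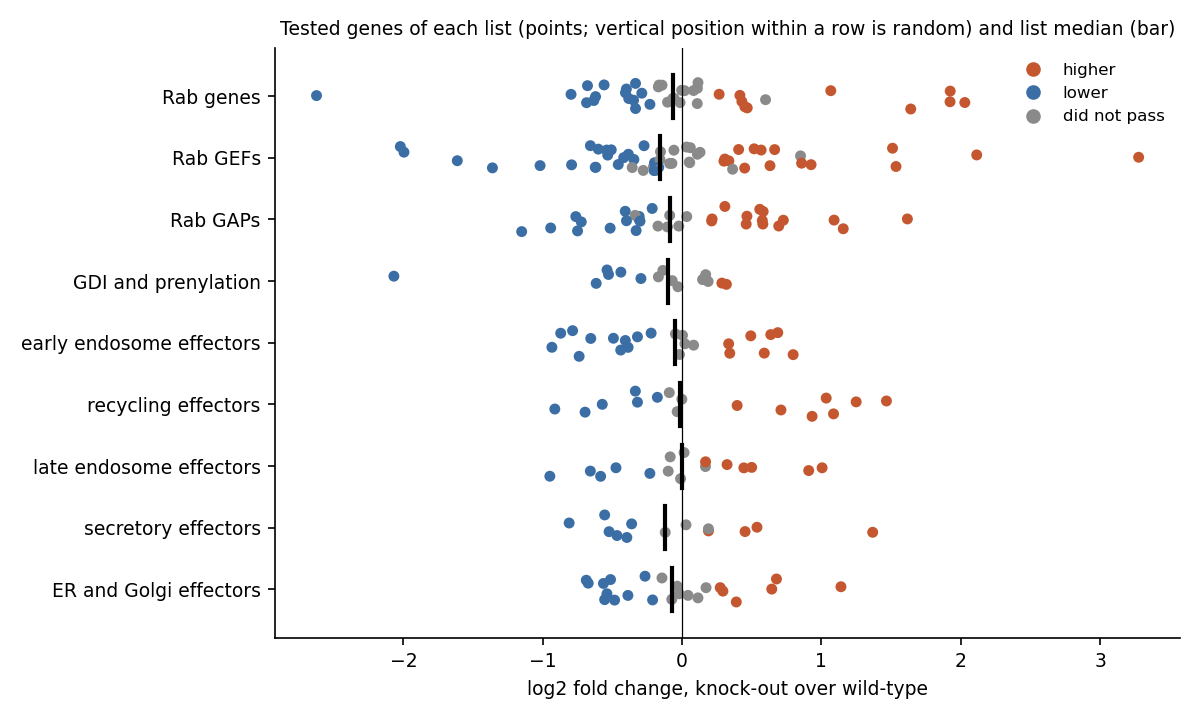
Log2 fold change of each tested gene of the Rab family and of the 8 regulator and effector lists, with the median of each as a line. Every list spreads to both sides of 0, and Rabggtb at -2.07 stands apart from the rest of the GDI and prenylation list.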

How the data were processed

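RNA-seq of 6 CT26 libraries was used, 3 per genotype, as raw read counts per Ensembl gene that the authors deposited. Per the submitters' processing notes, fastp, STAR and HTSeq were among the tools and mm10 was the build, while their roles, versions and strand setting are not given in these sources. Genes counted in fewer than 3 libraries have no row. Symbols matched 17650 of 17718 gene IDs. From the counts, edgeR 4.0.16 (R 4.3.3) was run with filterByExpr (minimum count 10), TMM scaling and a robust quasi-likelihood fit on genotype alone, with Benjamini-Hochberg adjustment over all 13013 genes tested. The biological coefficient of variation was 5.03%. CPM carry counting error on top of spread between libraries, and libraries of a genotype varied 2.13 to 3.13 times as much as counting alone gives. Alternatives used DESeq2 1.42.0, limma 3.58.1 voom, other scalings, filters and thresholds, and left out each library. The fit was tested on simulated data. By rule, values per library were given for members called at 1.5-fold or more and for paralog sets; those of Rab3a, Rab9, Rab13, Rab14, Rab18, Rab35 and the untested members were added after they were seen, and, of each list, the 3 smallest p in each direction were named. Members and lists were chosen with earlier results of these data known. Positions and promoters are RefSeq's (GRCm38.p6).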

Additional observations from a re-analysis of the deposited data

How the results depend on the processing

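Over 17 alternatives, 659 values of the 39 Rab genes were recomputed: 608 kept direction and side of the threshold, 27 lost a call, 20 gained one and 4 reversed. Of the 25 called members, 20 kept call and direction under every alternative that gave a value, the test against a 1.5-fold change left aside, and 7 with it (Rab3d, Rab6a, Rab7b, Rab17, Rab29, Rab33a and Rab36). Of these, Rab17, Rab33a and Rab36 had no value under the stricter filter, which tested 35 Rab genes. Rab17 and Rab33a were tested through 1 group alone, so a difference was built into their being among the 7. Rab36 also needed its knock-out libraries to be tested, so the same holds for it. Leaving out 1 library gave 25 to 26 Rab genes called, 10 to 11 higher and 15 lower. DESeq2, voom, RLE scaling, removal of the 50 most abundant genes and an adjusted p under 0.01 each gave 25 called. Upper-quartile scaling gave 18 Rab genes higher and library size alone 16, in place of 10. The test against 1.5-fold called 2602 of all genes, 7 Rab genes (5 higher, 2 lower) and 31 regulators and effectors, in place of 8621, 25 and 139. Under upper-quartile scaling Rab21 reversed to 0.14, Rab2a to 0.10, Rab31 to 0.15, Gdi2 to 0.087, Arf1 to 0.11 and Arf4 to 0.11, and under library size alone Rab31 reversed to 0.12. With chromosome medians removed Rabggta reversed to -0.063 and Sar1a to -0.34. The cause of each was not tested. No paired analysis was possible because the knock-out columns carry no replicate number from the labels. Low counts limit the precision of Rab17, Rab33a and Rab36, and the 7 untested Rab genes.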

Other observations

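Other small GTPases of vesicle traffic, picked after the Rab values were known, changed by single members as well. Arf6, which acts in endocytic recycling at the plasma membrane, fell from 345 ± 10.1 to 197 ± 6.35 CPM (SD, n = 3 libraries; log2 fold change -0.81, SE 0.0416, edgeR adjusted p = 1.59e-24), and Arf3, of the Golgi, rose from 271 to 365 CPM (0.43, adjusted p = 2.29e-14). Arf1 (-0.05, adjusted p = 0.215), Arf4 (-0.05, adjusted p = 0.318) and Arf5 (-0.02, adjusted p = 0.825) were not called. Sar1a (0.01) and Sar1b (0.04), the GTPases of vesicle budding from the ER, were not called either. Of the Rab-like genes, Rabl2, which acts in cilia, rose from 13.9 to 22.3 CPM (0.69, adjusted p = 6.12e-06) and Rabl6 fell (-0.19, adjusted p = 0.000728), a call lost under upper-quartile scaling (-0.03) and library size alone (-0.07). The transcribed copy Rab11b-ps2 was counted 1, 1 and 4 times in WT and 10, 8 and 11 times in knock-out libraries, beside the rise of Rab11b; whether reads of the 2 were mixed was not tested.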
